A study of Mus musculus with 6 samples.

Results

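The genes Aoah and Litaf were followed through the hnRNP UL1 peak tables of RAW 264.7 cells, a mouse macrophage-like cell line. hnRNP UL1 belongs to the heterogeneous nuclear ribonucleoproteins, RNA-binding proteins of the nucleus. Chromatin bound by it was precipitated from untreated cells (0 h) and from cells given lipopolysaccharide (LPS), the outer-membrane glycolipid of Gram-negative bacteria, at 100 ng/ml for 4 h or 10 h. Each time had 1 ChIP library and 1 input library, the inputs were not analysed here, and no knockout or other genotype was used. Each row of a table places 1 peak as a point and names the gene of the nearest transcript start. Rows were taken when they named Aoah or Litaf, or when their point lay inside either gene or within 5 kb of it on either side. This gave 71 of the 18624 complete rows of the 3 tables, 32 at Aoah and 39 at Litaf. Both genes were chosen by their numbers of points in these same tables, so the counts below describe them and carry no test. With 1 library per time no p-value between times can be had. The tables hold no peak height, score or read depth, so a point is present or not present. They hold no expression values either, so the cell type could not be checked against its markers.

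Aoah encodes acyloxyacyl hydrolase, a lipase with a saposin-like domain that removes acyl chains from the lipid A part of LPS and so inactivates it. It is made by macrophages, dendritic cells and other phagocytes. Litaf encodes the LPS-induced TNF factor, a small zinc-binding protein on the membranes of late endosomes and lysosomes. It was first described as a regulator of Tnf transcription in LPS-treated macrophages and is also known for its part in sorting membrane proteins for degradation. One gene thus acts on LPS itself and the other is named for its response to LPS.

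The tables were sorted by Ensembl gene ID and ended at different IDs, which decides what can be compared. Aoah (ENSMUSG00000021322) lies below the last ID of all 3 tables and is reached at 0 h, 4 h and 10 h. Litaf (ENSMUSG00000022500) lies below the end of the 4 h table, ENSMUSG00000027620, but above the end of the 10 h table, ENSMUSG00000022416. The 10 h table therefore says nothing about Litaf, and its lack of Litaf rows is not an absence of peaks. Over the IDs reached by all tables there were 1312 points at 0 h, 5298 at 4 h and 1152 at 10 h. Over the longer range reached at 0 h and 4 h there were 2225 and 9045, a ratio of 4.07. How far this difference in list length carries over to single genes was not tested.

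The 250 bases before the RefSeq promoter start of each gene are shown because they differ in base composition. They were read from RefSeq promoter sequences on GRCm38.p6, run 5′ to 3′ on the gene's own strand, and have CpG dinucleotides in capitals. The Aoah window is chr13:20793863-20794112 (plus strand) and the Litaf window is chr16:10993122-10993371 (minus strand). The Aoah window ends a few bases inside the gene span, whose start at 20794103 is the one used for the distances below.
Aoah: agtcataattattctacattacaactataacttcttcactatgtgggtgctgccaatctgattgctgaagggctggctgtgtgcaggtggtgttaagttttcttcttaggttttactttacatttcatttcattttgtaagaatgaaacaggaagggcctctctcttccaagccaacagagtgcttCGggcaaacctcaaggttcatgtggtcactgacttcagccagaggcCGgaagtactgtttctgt
Litaf: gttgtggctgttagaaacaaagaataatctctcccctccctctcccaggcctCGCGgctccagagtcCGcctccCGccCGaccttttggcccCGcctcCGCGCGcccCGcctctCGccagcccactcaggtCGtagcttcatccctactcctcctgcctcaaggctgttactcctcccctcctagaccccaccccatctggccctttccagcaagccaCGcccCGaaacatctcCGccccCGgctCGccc
The Aoah window holds 2 CpG dinucleotides and has a GC content of 42.8%, and the Litaf window holds 17 and has 65.6%. The median of all 32851 RefSeq promoter windows of this length was 6 CpG dinucleotides and 52.4% GC. Fewer CpG dinucleotides than at Aoah were found in 18.8% of the windows, and fewer than at Litaf in 76.5%. Of 5 motifs searched on both strands, the Aoah window held 1 match and the Litaf window none. The match, ttgctgaa, begins 189 bases before the start that follows the Aoah window and fits the C/EBP pattern TTGCNNAA, which 9.56% of all windows hold. The other motifs were AP-1 (TGANTCA, in 6.75% of windows), PU.1 (GAGGAAGT, 2.44%), the NF-kB motif (3.9%) and an interferon-response pattern of GAAA, any 2 bases and GAAA again (2.98%). A match or its lack describes these letters only. No hnRNP UL1 point of any time lay inside either window.

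Aoah carried no point in untreated cells and a series of points under LPS. The gene spans 243 kb of chromosome 13 (20794103 to 21036617, plus strand, GRCm38.p6). Within the gene and 5 kb on either side there were 0 points at 0 h, 17 at 4 h and 11 at 10 h. Of the 17 points at 4 h, 16 lay in the gene body and 1 in the flank downstream, and all 11 points at 10 h lay in the gene body. A further 4 rows of 4 h named Aoah from 5.15 to 11.3 kb upstream of its start, which brings the rows at 4 h to 21. All 32 Aoah rows named Aoah itself, so no listed point in the region was credited to another gene.

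At 0 h the surroundings were empty too. The nearest point of the 0 h table lay 171 kb before the gene and the next one after it lay 2.33 Mb beyond its end, a stretch of 2.75 Mb without a point. Stretches at least this long were not rare in that table, with 206 among 8405 distances between neighbouring points, but the median distance was 52.5 kb.

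Having no point at 0 h and some under LPS was common among genes named by a row, and having many was not. The IDs reached by all tables held 2068 protein-coding genes so named. Of these, 53.6% had no point at 0 h and at least 1 at 4 h, and 1.06% had none at 0 h and at least 10 at 4 h. At 10 h, 16.9% had none at 0 h and at least 1, and 0.29% had none at 0 h and at least 5. Aoah is in each of these groups. By number of points it took rank 18 of the 2068 genes at 4 h and rank 5 at 10 h. Per 10 kb, however, Aoah had 0.673 points at 4 h and 0.436 at 10 h, ranks 485 and 179, against medians of 0.35 and 0 over the genes. Aoah thus stands high by number of points and lower by density. Genes that no row names were left out of these shares, ranks and medians, which therefore do not describe all genes of these IDs. They were likewise left out over the longer ID range.

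The change from 4 h to 10 h was smaller at Aoah than at most genes with many points. Aoah held 0.647 times as many points at 10 h as at 4 h, whereas all points of the shared IDs came to 0.217 times. This ratio uses the gene and 5 kb on either side. By rows naming Aoah, 21 at 4 h and 11 at 10 h, it would be lower, and no rank is given for that count. Fewer points at 10 h than at 4 h were found in 72.6% of the 2068 genes. Among the 64 genes with at least 10 points at 4 h the median ratio of 10 h to 4 h was 0.209, and Aoah took rank 6. The highest ratio was that of Ctsb, the cathepsin B gene, at 1.05. These 64 genes were selected for high counts at 4 h, so their median cannot be set against the ratio of all points. As a share of all points Aoah held 0 per 1000 at 0 h (exact 95% Clopper-Pearson interval 0 to 2.81), 3.21 at 4 h (1.87 to 5.13) and 9.55 at 10 h (4.78 to 17.0). The interval of 4 h overlaps both others. These intervals cover counting error only, and neighbouring points are not independent.

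**Figure D1:**
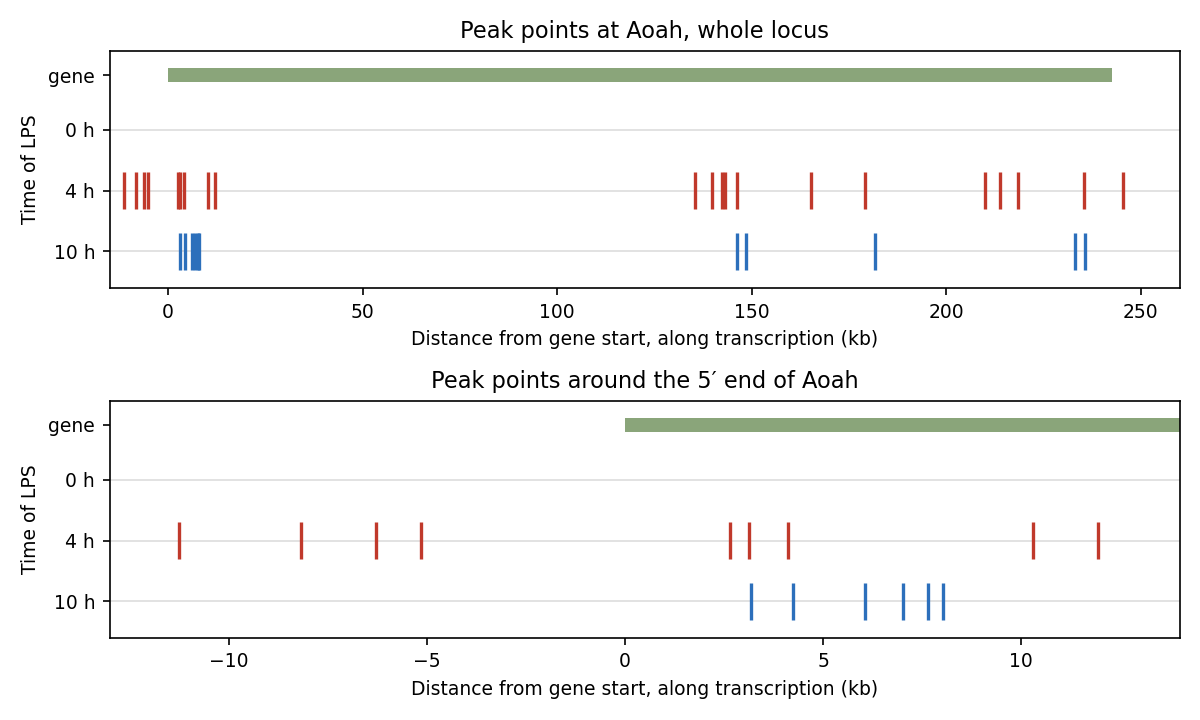
Points of each table along Aoah, with the distance from the annotated gene start in kb on the x axis and 1 lane per time; each tick is 1 point and the green bar is the gene. The upper panel shows 3 groups of ticks at 4 h and 10 h and no tick at 0 h, and the lower panel enlarges the first group, where the 10 h ticks from 6.07 to 8.03 kb fall in a stretch without 4 h ticks.

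The Aoah points fell into 3 stretches separated by over 20 kb. The first ran from 11.3 kb upstream of the start to 11.9 kb inside the gene and held 9 points at 4 h and 6 at 10 h. Its 4 upstream points, all of 4 h, were annotated by the authors as distal intergenic. The second stretch, 136 to 182 kb from the start, held 7 points at 4 h and 3 at 10 h, all in introns 11 and 12 of the transcript with 20 introns. The third, 210 to 246 kb from the start, held 5 and 2 and covered the 3′ part of the gene. Between the first and second lay 124 kb of the gene body, from 11.9 to 136 kb, without a point at any time. For 30.7 kb of that gap, 23.9 to 54.5 kb from the start, the tables do not show whether the start of another gene lies there. Points nearest to a gene with an ID beyond the tables' ends would be missing at 4 h and 10 h. Such missing points could lie outside the 30.7 kb too, wherever the gap is nearer to that start than to one of Aoah.

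Around the 5′ end the points of the times were arranged differently. At 4 h, 3 points lay at 2.65, 3.13 and 4.12 kb inside the gene, and a pair followed at 10.3 and 11.9 kb. At 10 h there were points at 3.17 and 4.23 kb, and then 4 more at 6.07, 7.02, 7.66 and 8.03 kb, in an interval where the 4 h table had none. The points at 7.02 and 7.66 kb were annotated as exon 2 of a short Aoah transcript with 2 exons, and the others inside this part of the gene as intron 1 or, at 2.65 kb, as promoter at 2 to 3 kb. Upstream of the start only the 4 h table had points.

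At 4 positions the 10 h and 4 h points nearly coincided. These lay 6 bp apart at 146 kb, in intron 11, 34 bp apart at 3.13 and 3.17 kb, 105 bp apart at 236 kb and 111 bp apart at 4.12 and 4.23 kb. The other 7 points of 10 h lay between 1944 and 2898 bp from the nearest 4 h point, so the count of 4 was the same at distances of 200, 500 and 1000 bp. They make up 36.4% of the 11 points at 10 h and 19.0% of the 21 at 4 h. Positions within 500 bp of a 4 h point cover 7.61% of the region from 11.3 kb upstream of the start to 5 kb beyond the gene end. That region includes the 124 kb without a point at any time, so the share within the stretches that hold points is higher. Whether the 4 near pairs exceed what dense packing alone would give was not tested.

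By annotation the Aoah points were mostly intronic. At 4 h 13 of 21 were in introns, 5 were distal intergenic and 3 were promoter points at 1 to 3 kb, and at 10 h 9 of 11 were in introns and 2 in the exon named above. None lay within 1 kb of a start, a class that holds 20.1% (95% interval 19.0 to 21.2%) of all 4 h points and 20.8% (18.5 to 23.3%) of all 10 h points of the shared IDs. Of the promoter points, those at 214 and 219 kb owe their class to a short transcript, ENSMUST00000222135, which starts inside the gene. RefSeq places a long noncoding RNA gene, Gm32242 (20936803 to 21010596), within the Aoah span, and 6 points of 4 h and 3 of 10 h lie in both.

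Litaf held many points before LPS as well as after 4 h. The gene spans 33.8 kb of chromosome 16 (10959273 to 10993121, minus strand). Within the gene and 5 kb on either side 19 points were found at 0 h and 19 at 4 h. This equality compares different parts of the locus. Of the 19 points at 0 h only 8 named Litaf, and the other 11 named an unnamed gene inside Litaf, ENSMUSG00000093897, whose ID lies beyond the end of the 4 h table. All 19 points of 4 h named Litaf. The comparison therefore holds only where the nearest start belongs to Litaf, which is the 30.3 kb from 7.86 kb upstream of the Litaf start to 22.5 kb after it. There the counts were 8 at 0 h and 19 at 4 h, or 2.64 and 6.26 points per 10 kb. The ratio of 2.38 is below that of 4.07 for all points of the longer ID range.

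More points at 4 h than at 0 h were found in 72.9% of the 3369 protein-coding genes that a row names in that range. Litaf shares this direction with most of them. As a share of all points Litaf held 3.6 per 1000 at 0 h (1.55 to 7.07) and 2.1 per 1000 at 4 h (1.27 to 3.28), with overlapping intervals. Among 39 genes with at least 5 points at 0 h the median ratio of 4 h to 0 h was 1.2, and Litaf took rank 9. This group was selected for high counts at 0 h, so its median cannot be set against the ratio of all points.

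In untreated cells Litaf was among the genes with the most points. Counted over the whole 0 h table, which reaches every ID concerned, its 19 points gave it rank 7 of 21627 protein-coding genes, and its 4.33 points per 10 kb gave it rank 6. The median gene had 0 points. In the longer ID range, with the 8 comparable points, it took rank 14 at 0 h, a place shared by 6 genes, and at 4 h rank 22, shared by 5. In contrast to Aoah, Litaf kept a high place when points were counted per 10 kb, with rank 10 at 0 h and rank 16 at 4 h. These ranks use 1.82 and 4.33 points per 10 kb, since they spread the comparable points over the whole 43.8 kb of gene and flanks, of which the 4 h table does not cover 16.4 kb.

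**Figure D2:**
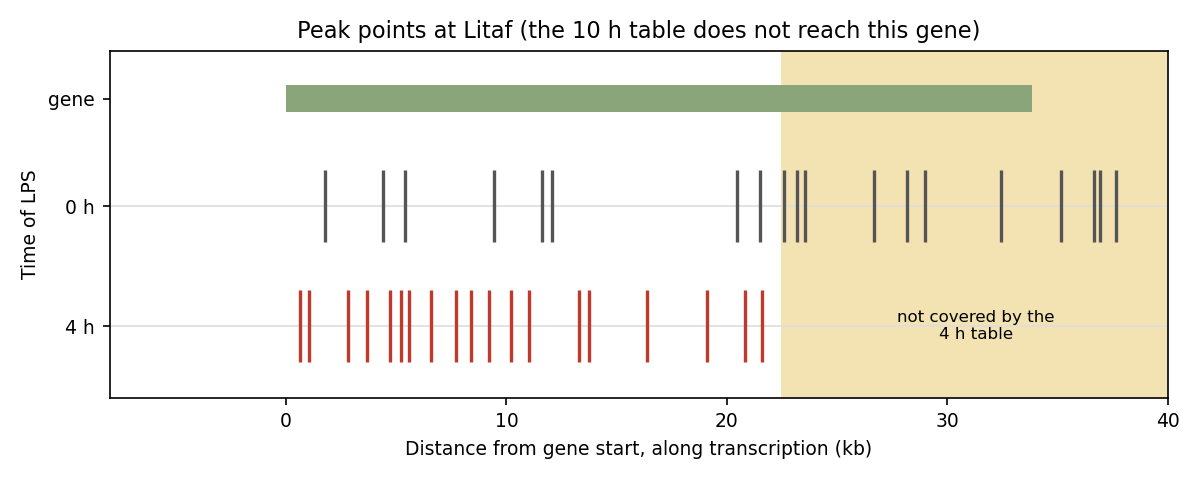
Points along Litaf at 0 h and 4 h, with the distance from the annotated gene start in kb on the x axis; each tick is 1 point, the green bar is the gene, and the shaded part beyond 22.5 kb is where the 4 h table cannot hold points. In the unshaded part 8 ticks of 0 h stand against 19 of 4 h, and the shaded part holds 11 ticks of 0 h.

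In untreated cells the points were denser towards the 3′ end. The 16.4 kb from 22.5 kb after the start to 5 kb beyond the end of Litaf held 11 points, or 6.72 per 10 kb, against 2.64 per 10 kb in the 30.3 kb before. Of these 11, 3 lay in intron 1 of Litaf, 3 within 2 kb of the start of the unnamed gene, 1 in the 3′ untranslated region and 4 downstream of the gene end. The 4 h table does not cover this part.

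In the part open to comparison the 4 h points lined intron 1 at short distances. They ran from 0.627 to 21.6 kb after the start, with 354 to 2741 bp between neighbours and a median of 934 bp. The median over 104 genes with at least 10 points at 4 h was 3380 bp. The 0 h points ran from 1.76 to 21.5 kb, with a median of 2190 bp and 1 empty stretch of 8397 bp, from 12.1 to 20.5 kb, in which the 4 h table had points at 13.3, 13.7, 16.4 and 19.1 kb. The points nearest to the start, at 0.627 and 1.04 kb, were both of 4 h, and the first point of 0 h came at 1.76 kb.

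By annotation 14 of the 19 points at 4 h and 6 of the 8 comparable points at 0 h were in introns, in every case intron 1 of the transcript with 3 introns. The authors classed 5 of the 4 h points as promoter, 2 of them within 1 kb of a start. The 2 comparable points of 0 h in the promoter class lay 1.76 and 20.5 kb after the RefSeq start. The latter, and those of 4 h at 16.4 and 19.1 kb, owe their class to a transcript that starts inside the gene, ENSMUST00000117360. Over the longer ID range introns held 34.3% (32.4 to 36.4%) of the points at 0 h and 41.2% (40.2 to 42.2%) at 4 h.

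Shared positions at Litaf cannot be told from dense packing. Of the 8 comparable points at 0 h 5 had a 4 h point within 500 bp, and the closest pairs were 99 and 177 bp apart. This is 62.5% of the 0 h points, and 6 of the 19 points at 4 h (31.6%) had a 0 h point as near. Positions within 500 bp of a 4 h point, however, cover 51.6% of the compared part of the locus. Within 200 bp the count was 2 of 8, and such positions cover 25.0%.

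A single row of 0 h named Litaf from afar. Its point lay 73.0 kb upstream of the RefSeq start, at 17 bp from the start of a transcript, ENSMUST00000230709, that the authors' table assigns to Litaf. The reference annotation ends Litaf at 10993121 and places the gene Snn, from 11066298, next to that point. It is a Litaf point by name only and was not counted in the region.

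**Figure D3:**
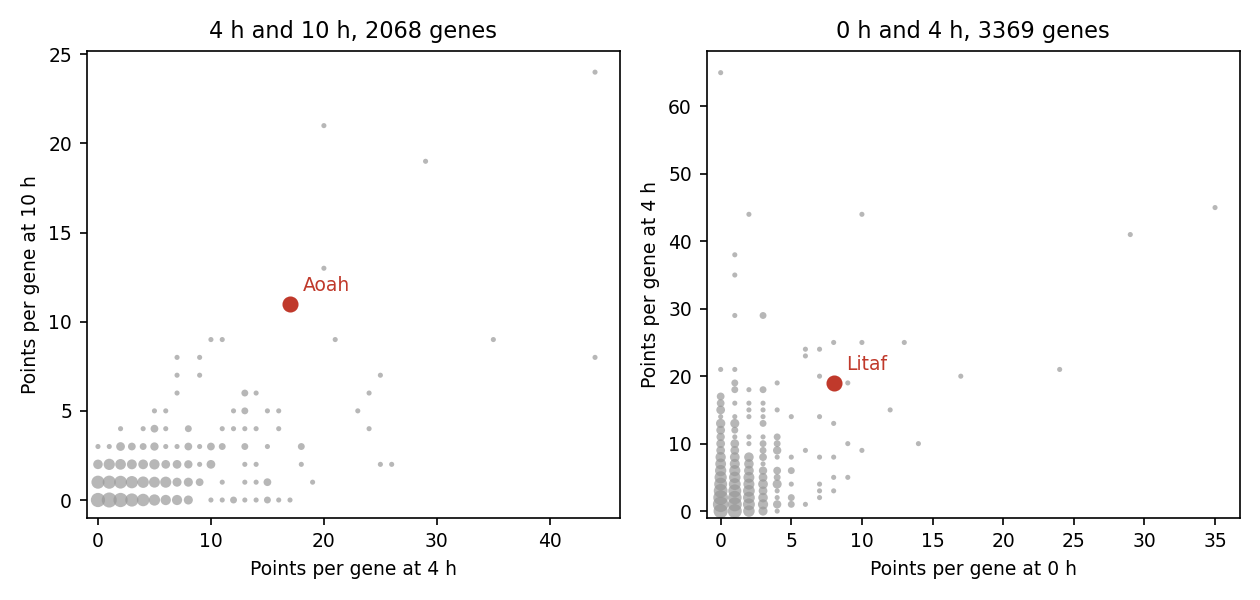
Points per protein-coding gene and 5 kb on either side, for genes named by a row. The left panel shows 4 h and 10 h for the 2068 genes named in the IDs reached by all tables. The right panel shows 0 h and 4 h for the 3369 genes named in the longer ID range. Grey dots are larger where more genes share a pair of counts. Aoah, at 17 and 11 points, lies above most genes with as many 4 h points, and Litaf, at 8 and 19, lies among the few genes with high counts at both times.

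The genes with counts most like those of Aoah were found by the sum of absolute differences over the 3 libraries. Met, which encodes the receptor of hepatocyte growth factor, had 0 points at 0 h, 14 at 4 h and 6 at 10 h. Capza2, an actin-capping protein gene, had 0, 11 and 9, and Parp8 had 0, 16 and 4, each at a sum of 8, like Met. Pde4d, a phosphodiesterase gene, followed with 0, 13 and 6 at a sum of 9. Lims1, which encodes a focal-adhesion adaptor, had 1, 13 and 6 at a sum of 10. None was nearer than 8 over the 3 libraries.

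For Litaf the sums run over 2 libraries and a longer ID range, so they cannot be set against those of Aoah. Runx1, a transcription factor gene of blood cells, had 9 points at 0 h and 19 at 4 h, a sum of 1. Arid5b, a chromatin regulator gene, had 7 and 20 at a sum of 2, and Kpna3, an importin gene, had 4 and 19 at a sum of 4. B4galt5, a galactosyltransferase gene, had 7 and 24, and Pde7b, a phosphodiesterase gene, had 3 and 18, both at a sum of 6.

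The other genes of LPS recognition and inactivation each had fewer points at 4 h than Aoah where the 4 h table reaches them. These counts are not divided by length, so they do not rank the genes by density. The regions counted spanned 253 kb at Aoah, 83.7 kb at Ly86 and 23.1 kb at Cd180. Beside Aoah the list had 25 genes, of which 8 are named by a row in the longer ID range, the members without such a row being left out. Of these 8, 6 had more points at 4 h than at 0 h and 2 had fewer, as against 72.9% of the 3369 named genes with more, a like share. Their medians were 0.5 points at 0 h and 2.5 at 4 h, against 0 and 1 over the 3369 genes. Ly86, which encodes MD-1, had 0 points at 0 h and 8 at 4 h. Its partner Cd180, a Toll-like receptor homologue, had 2 and 6, and the scavenger receptor gene Msr1 had 0 and 5. Pltp, a phospholipid transfer protein gene, had 1 and 3, Ly96, which encodes the LPS-binding co-receptor MD-2, had 0 and 2, and the adaptor gene Traf6 had 0 and 1. The scavenger receptor gene Cd36, with 3 and 2, and the integrin gene Itgb2, with 1 and 0, were the members with fewer. Of the 5 others reached at 10 h, 1 had a point then, Cd180, beside 30.4% of the 2068 genes with at least 1. So few genes cannot be told apart from that share. Tlr4, the LPS receptor gene, lies beyond the 4 h table. At 0 h it had 0 points in the gene and 5 kb on either side, though the 0 h table names it from farther away.

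Among saposin-type and lysosomal lipid genes, 7 of 17 were named in the longer range, 5 with more and 2 with fewer points at 4 h than at 0 h. This is again near the 72.9% of the 3369 named genes with more. Psap, whose product prosaposin is cut into saposins, had 24 points at 0 h, 21 at 4 h and 9 at 10 h. Npc2, a lysosomal cholesterol carrier gene, had 2, 18 and 3. Lipa, the lysosomal acid lipase gene, had 0 and 5 at 0 h and 4 h, and Npc1 had 2 and 4. Psap and Aoah, which both encode proteins with saposin-type domains, thus differ in having many points and none in untreated cells.

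Beside Litaf, 7 of 18 genes of its relatives, partners and endosomal sorting were named in the longer range. Of these 3 had more points at 4 h than at 0 h, 1 had fewer and 3 had as many, against 72.9% of the 3369 named genes with more. Their median was 1 point at both times, against 0 and 1 over the 3369 genes. Nedd4l, a ubiquitin ligase gene of the family that binds LITAF, had 7 points at 0 h and 8 at 4 h. Cdip1, whose product shares the LITAF domain, had 2 and 2, Stx6 had 0 and 2, and the ligase gene Itch had 1 and 1. No row names Tnf. It had 0 points at 0 h, and its counts at 4 h and 10 h were not taken.

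**Figure D4:**
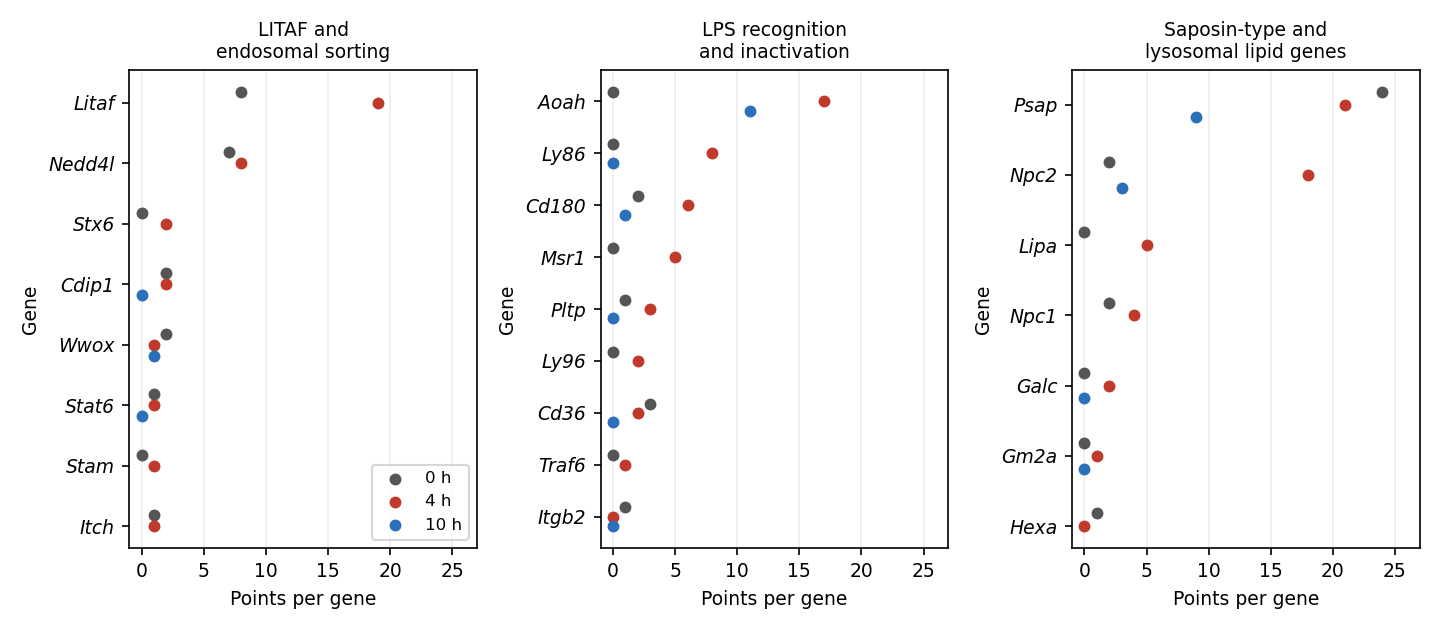
Points per gene for the members of the 3 lists that are named in the longer ID range, with 1 row per gene and 1 dot per time (grey 0 h, red 4 h, blue 10 h where the table reaches the gene). Litaf and Aoah have the most 4 h points of their lists, and Psap has the most points at 0 h. Counts are not divided by gene length.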

How the data were processed

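The series holds 3 ChIP and 3 input samples, grouped by title, 1 library per group. The submitters' processing notes name the tools CASAVA 1.8, BWA 0.7.12, MACS2 2.1.0 and the build GRCm38 (mm10). Their settings, the use of the input and the annotation tool are not given in the sources used here. The tables deposited by the authors give, per the file headers, a point 2 bp wide for each peak, its annotation, and the nearest transcript start with its gene. The 8425, 9046 and 1153 complete rows of 0 h, 4 h and 10 h were used, and 1 broken row of 4 h was left out. All 8425 rows of 0 h name the nearest of the starts listed at that time, within 1 bp. Depth is unknown.

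Gene spans came from RefSeq genes of GRCm38.p6, matched by symbol and chromosome. Points were counted in a gene and 5 kb to both sides (Python 3.11.15, pandas 2.3.3), and counts per gene used rows with IDs below the end of the shorter table. The genes compared over an ID range are those that a row names in it. The members and lists were chosen with earlier results of these data known. Named genes are the members, their neighbours, up to 4 members of each list with the most 4 h points, and the 5 genes nearest in counts. Outside that rule, the list genes Ly96, Pltp, Cd36, Traf6, Itgb2, Itch, Tlr4 and Tnf, and Ctsb, which is in no list, were named after their values were seen. Counting was tested on simulated data.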

Additional observations from a re-analysis of the deposited data

How the results depend on the processing

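The counts of Aoah and of Litaf at 4 h stayed within 1.5 times under every region tried: rows naming the gene, the gene span alone and 10 kb to both sides gave 16 to 21 points for Aoah at 4 h, 11 at 10 h, 0 at 0 h, and 19 for Litaf at 4 h. The Litaf count at 0 h, 19 over the whole region, was 9 by rows naming Litaf and 8 in the part of the locus whose nearest start is one of Litaf, a choice made after the data were seen. Both leave out points credited to the unnamed gene inside Litaf. The 0 h points of Litaf near a 4 h point numbered 5 within 500 bp, 2 within 200 bp and 7 within 1000 bp. The percent of genes below each member and the shares of genes with the same pattern stayed within 1.5 times. The rank of Aoah did not, and went from 18 by number of points to 485 by density at 4 h, and from 5 to 179 at 10 h. No stricter peak threshold could be tried, since the tables hold no score. No paired analysis was possible because each time has 1 library.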

Other observations

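The neighbours of the genes were reached unevenly. Txndc11, a thioredoxin-domain gene 81.8 kb from Litaf, is reached at 0 h and 4 h and had 4 points at each, beside 8 and 19 comparable points at Litaf. Elmo1, an engulfment gene 186 kb from Aoah, had 8 points at 0 h, where Aoah had 0, and its ID lies beyond the 4 h and 10 h tables. Rmi2, 116 kb from Litaf, had 2 points at 0 h and is likewise not reached later. No row names Olfr1370, 35.7 kb from Aoah, which had 0 points at 0 h, or Snn, 73.2 kb from Litaf, which had 1. The Snn point is the same 0 h point that names Litaf from afar, described above.

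Of 8 macrophage marker genes 5 were named in the longer ID range, and 4 of these had more points at 4 h than at 0 h, as had 72.9% of the 3369 genes named there. Spi1, the gene of the myeloid factor PU.1, had 2 points at 0 h, 11 at 4 h and 3 at 10 h, Mertk had 0, 6 and 0, Fcgr1 had 1, 5 and 2, and Csf1r had 1 and 1 at 0 h and 4 h. These are peaks, not expression.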
